A study of Mus musculus with 6 samples.

Results

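The 35 genes described here encode the glutamate receptors of mouse neurons and the proteins that ride with them, out of 43432 genes listed for each library. They were chosen by gene family: 4 AMPA receptor subunits (Gria1 to Gria4), 7 NMDA receptor subunits (Grin1, Grin2a to Grin2d, Grin3a, Grin3b), 5 kainate receptor subunits (Grik1 to Grik5), the delta receptor gene Grid1, 7 metabotropic receptors (Grm2 to Grm8), 7 AMPA receptor auxiliary subunits (Cnih2, Cnih3, Shisa6, Shisa9, Cacng2, Cacng3, Cacng8), the kainate receptor auxiliary subunits Neto1 and Neto2, and the PDZ domain proteins Grip1 and Pick1. All 35 were found in the files by their Ensembl identifiers, and 33 received an adjusted p-value in each of the 3 comparisons. Grin3b and Grm6 had at most 1 and 4 estimated fragments in any library and received none.

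Cortical neurons were taken from wild-type C57BL/6 embryos of both sexes at E16.5 and kept in vitro for 7 days. On day 6 the cells of every group, the 0 h controls included, were silenced overnight with 1 µM TTX, which blocks sodium channels, and 100 µM DL-AP5, which blocks NMDA receptors. They then received 55 mM KCl, which depolarizes the membrane so that calcium enters through voltage-gated channels. The time in KCl was 0 h, 2 h or 6 h. Poly(A) RNA of 2 biological replicates per time point was sequenced, giving 6 libraries. Since the same 0 h libraries serve both the 2 h and the 6 h comparison, these comparisons are not independent of each other. The NMDA receptor blocker acts on products of genes described below, and its effect cannot be told apart from the level of those genes because every library received it.

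Glutamate is the main excitatory transmitter of the cortex. AMPA, NMDA and kainate receptors are ion channels assembled from several subunits, and the mix of subunits sets their calcium permeability, kinetics and place in the membrane, whereas metabotropic receptors act through G proteins, those of group I mostly after and those of group III mostly before the synaptic cleft. Auxiliary subunits escort AMPA and kainate receptors to the surface and tune their gating, and PDZ domain proteins hold the receptors in place or take them inside. Neurons are known to adjust the number of these receptors when their activity changes for hours, and part of this adjustment is made through the amount of messenger RNA.

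The libraries held between 25959298 and 28573067 estimated fragments assigned to genes. Summed over the markers of each cell type, neuronal genes stood at 2660 to 3410 TPM (a level per unit of transcript length), whereas microglial genes stayed between 2.27 and 6.45 TPM and endothelial genes between 0.41 and 1.1 TPM. Oligodendrocyte lineage genes summed to 95.4 to 141 TPM and progenitor genes to 77.4 to 98.7 TPM. Astrocyte genes were at 130 and 156 TPM at 0 h, 127 and 127 TPM after 2 h, and 98.7 and 98.7 TPM after 6 h, and the 5 neuronal markers also summed lower after KCl than before it. The 3 markers of inhibitory neurons summed to 206 and 197 TPM at 0 h, 278 and 260 TPM after 2 h, and 478 and 445 TPM after 6 h. What part these shifts have in the changes below was not tested. The 2 libraries of 2 h differed from each other more than those of the other times, with an SD of the log2 difference over 12290 genes of 0.43 against 0.25 at 0 h and 0.21 at 6 h.

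In neurons that had not been depolarized, the levels of the 35 genes spanned a wide range, from 0 TPM upwards. Gria2, whose product keeps calcium out of AMPA receptors, was the most abundant at a mean of 255 TPM (library values 273 and 238), followed by Cnih2, an auxiliary subunit that slows AMPA receptor closing, at 190.3 TPM (195 and 186), a gene that overlaps Yif1a on the opposite strand. Gria1, the AMPA receptor subunit most tied to activity-dependent insertion, stood at 173 TPM (182 and 164). Grm5, the metabotropic receptor of group I measured here, stood at 129 TPM (135 and 124), and Grin2b, the NMDA receptor subunit of the young cortex, at 104 TPM (115 and 92.5). These were the 5 genes above 100 TPM, and 26 of the 35 reached 10 TPM. Gria1 and Cnih2 did not overlap in their 0 h libraries, but Grin1, the obligatory NMDA receptor subunit, and Gria4 lay at nearly the same 53.8 TPM and could not be ordered. At the other end, Grin2a, the NMDA receptor subunit that gains on Grin2b as the cortex matures, had 6.94 and 6.67 TPM. Grm6, known from retinal bipolar cells, was listed at 0 TPM in both 0 h libraries, and Grin2c, best known from the cerebellum, stood at 0.3 and 0.26 TPM.

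Few of the 33 tested genes differed after 2 h of KCl and about as many as not after 6 h, when most of those that changed were lower. In the text that follows, a gene is said to rise or fall where its DESeq2 adjusted p was at most 0.05, and to pass the stricter call, which the study used, where its fold change also exceeded 2. Normalized counts are the estimated fragments of a gene scaled between libraries by DESeq2. At 2 h against 0 h no gene passed the stricter call, against 9.55% of all genes tested (3.62% higher and 5.94% lower), although 6 had an unadjusted p under 0.05; edgeR called none either. At adjusted p alone 2 genes rose, Grik1 and Grip1, and Grin2b fell, where 12.3% of all genes rose and 14.2% fell. These small counts moved with single libraries. Without replicate 1 of 2 h 7 genes rose and 6 fell, without replicate 2 of 2 h 5 rose and 0 fell, without replicate 1 of 0 h 0 rose and 0 fell, without replicate 2 of 0 h 0 rose and 1 fell, and without either 6 h library 1 rose and 1 fell. With library totals as the scale 1 rose and 4 fell. At 6 h against 0 h, 3 genes passed the stricter call, all of them lower (Grm4, Pick1 and Grik4), where 19.3% of all genes passed it in either direction and 10.2% as lower. At adjusted p alone 14 genes fell, 42.4% of the 33, beside 21.7% of all genes, and 3 rose, or 9.09%, beside 23.7% of all genes. The number that fell came to 9 without either 0 h library or without replicate 2 of 6 h, and the number that rose to 6 without either 2 h library. The median log2 fold change of the 33 genes was -0.23 at 6 h against 0 h and -0.39 at 6 h against 2 h, while the median over all genes was 0 and -0.005.

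The 14 genes that fell at 6 h against 0 h comprised 5 AMPA receptor auxiliary subunits, 3 metabotropic receptors, 2 AMPA receptor subunits, 2 NMDA receptor subunits, 1 kainate receptor subunit and Pick1. The libraries of 6 h lay wholly below those of 0 h in 20 of the 33 genes, where 39.6% of all genes tested did so, and wholly above in 8, where 40.9% did. At 2 h against 0 h they lay below in 5 and above in 10 of the 33 (31.1% and 31.5% of all genes), and at 6 h against 2 h below in 20 and above in 8 (36.6% and 38.2%). Of the 17 genes that rose or fell at 6 h against 0 h, 11 did so in every fit that left out 1 of the 6 libraries and in every other alternative apart from a test against a fold of 2: Gria1, Grin1, Grin3a, Grik4, Grm4, Grm7, Cnih3, Shisa6, Shisa9, Grip1 and Pick1. The other 6 (Gria3, Grin2a, Grin2d, Grm8, Cacng2 and Cacng3) lost their adjusted p in at least 3 of the fits without 1 library. Between 2 h and 6 h, 16 genes fell, beside 21.2% of all genes, and 7 rose, beside 24.1% of all genes. With 1 library left out, those that fell numbered 9 to 17 (9 without replicate 2 of 6 h, 10 without replicate 1 of 6 h) and those that rose 2 to 8 (2 without either 6 h library). Of these, Grm4 and Pick1 passed the stricter call as lower, beside 8.02% of all genes (18.1% in either direction), and without replicate 1 of 2 h 5 genes did so in either direction. In bulk RNA of a culture, fewer cells of a type and less RNA per cell cannot be told apart.

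**Figure D1:**
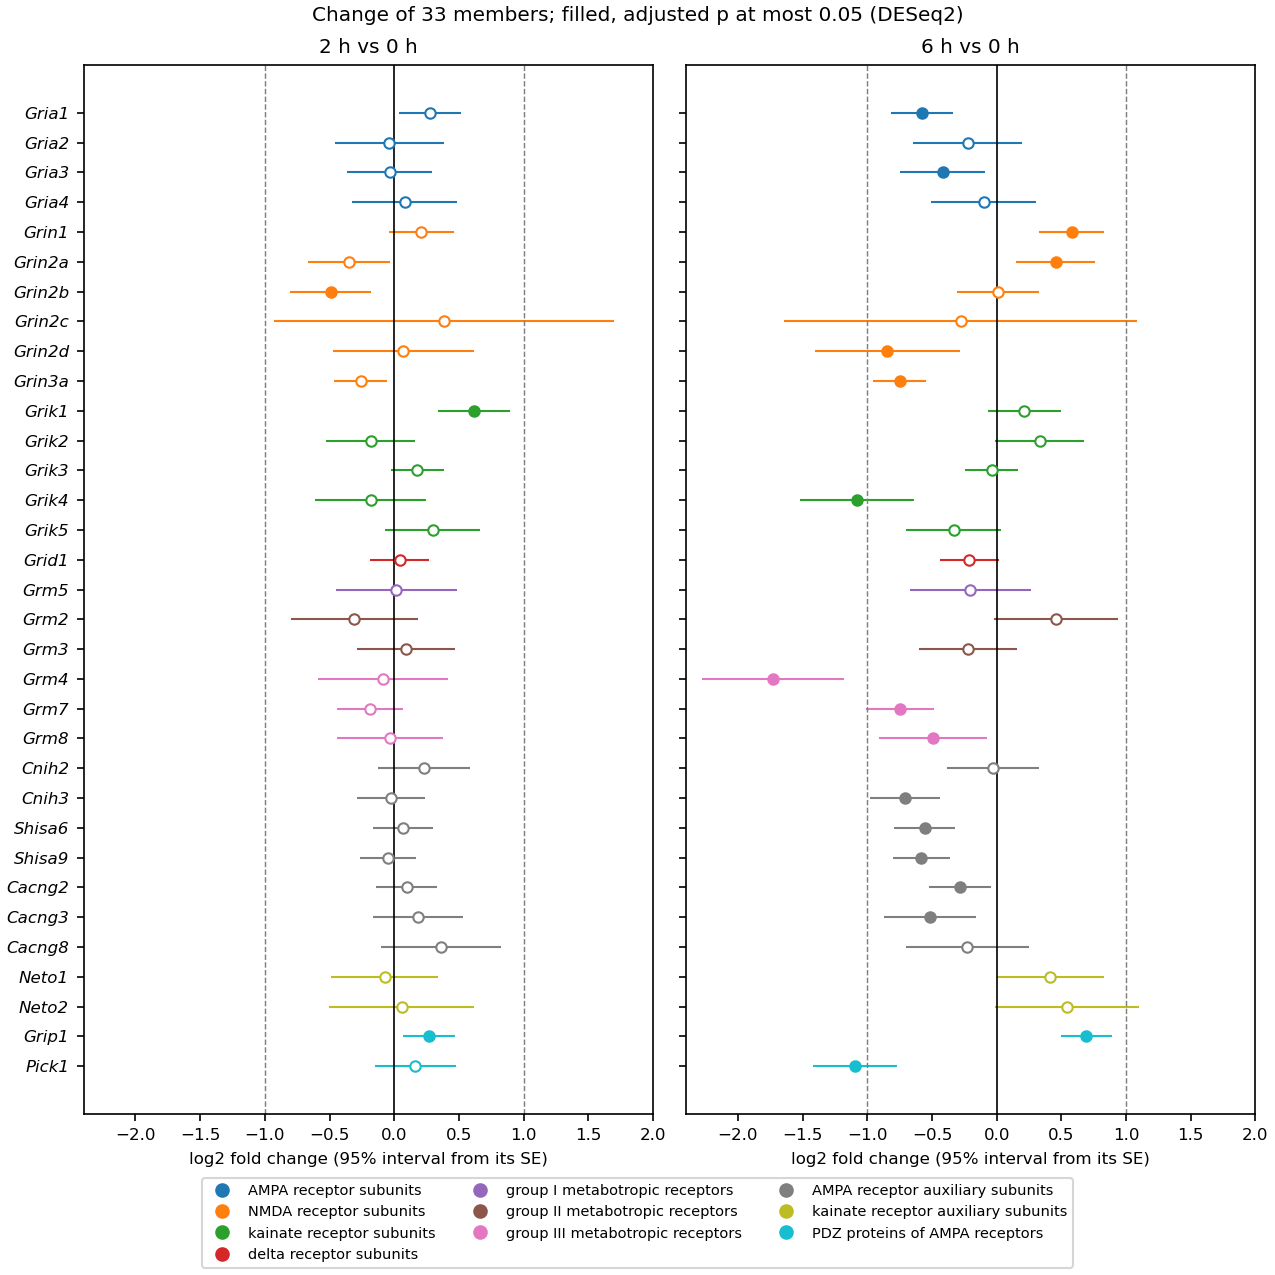
Log2 fold change (horizontal axis) of the 33 tested genes at 2 h (left) and 6 h (right) against 0 h, with bars for the 95% interval from the SE; colours mark the receptor class, filled points have a DESeq2 adjusted p of at most 0.05 and dashed lines mark a fold change of 2. At 2 h 3 points are filled, whereas at 6 h 17 are, 14 of them left of 0, with Grm4 at -1.73 the farthest.

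Among the AMPA receptor subunits, which carry most fast excitatory current, Gria1 and Gria3 fell by 6 h. The normalized counts of Gria1 were 12993 and 11988 at 0 h, 14411 and 15893 after 2 h, and 8870 and 7882 after 6 h. Thus the 2 h libraries were the highest and the 6 h libraries the lowest, with no overlap between any of the groups. The higher value at 2 h did not pass (log2 fold change 0.28, SE 0.12, DESeq2 adjusted p = 0.0757), but the fall at 6 h did, by 0.58 against 0 h (SE 0.12, adjusted p = 1.16e-05) and by 0.86 against 2 h (SE 0.12, adjusted p = 3.01e-11). In fits that left out 1 library the 6 h change against 0 h stayed between -0.67 and -0.49.

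Gria2 had 15356 and 13272 normalized counts at 0 h, 17092 and 10794 after 2 h, and 12387 and 12089 after 6 h. The 2 h libraries held both the highest and the lowest of the 6 values, and the 6 h libraries lay below those of 0 h. Its log2 fold change at 6 h against 0 h was -0.23 (95% interval -0.65 to 0.19, DESeq2 adjusted p = 0.414), so a fall as large as that of Gria1 lay within the interval. It passed as lower without replicate 1 or replicate 2 of 2 h (adjusted p = 0.00237 and 0.00268 in DESeq2) and with library totals as the scale (-0.47, adjusted p = 0.0345). Its fragments were not whole numbers in 3 libraries. Gria3 was lower at 6 h, with 1715 and 1752 normalized counts against 2440 and 2196 at 0 h and 2582 and 1948 at 2 h, and fell by 0.42 against 0 h (SE 0.17, DESeq2 adjusted p = 0.0305). That call was lost without either library of 0 h or either library of 6 h, with adjusted p up to 0.289. Gria4, in contrast, had 2912 and 2734 normalized counts at 0 h, 3595 and 2378 after 2 h, and 2804 and 2458 after 6 h, values that overlapped at all times (log2 fold change -0.10 at 6 h against 0 h, 95% interval -0.51 to 0.30).

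**Figure D2:**
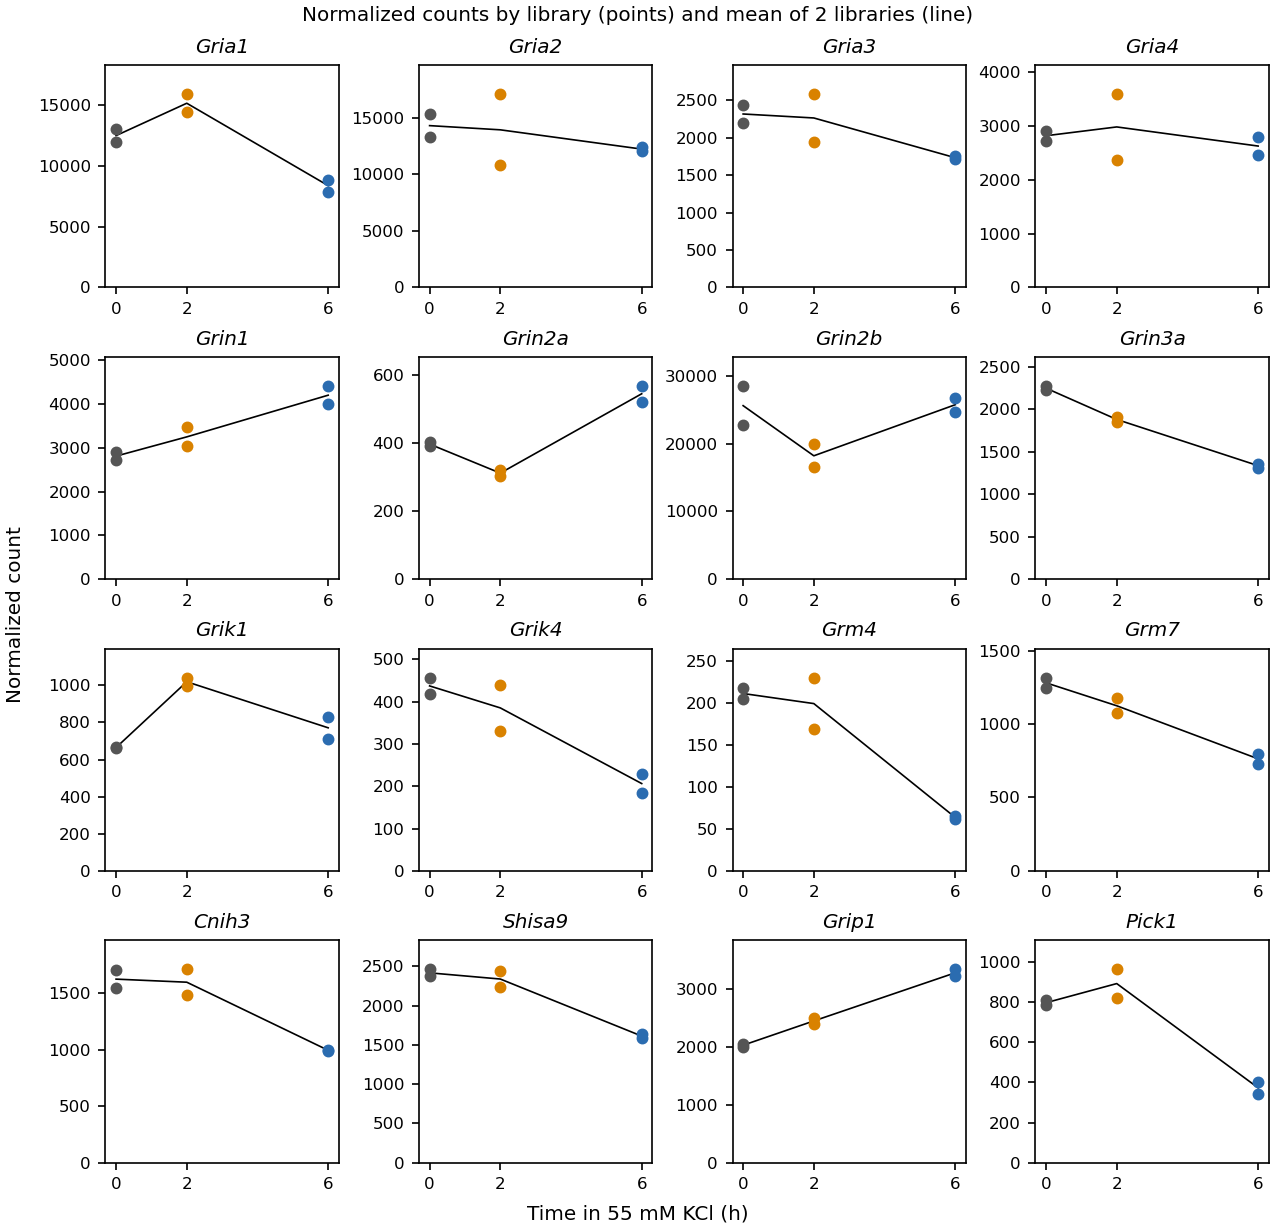
Normalized counts (vertical axis, each starting at 0) of 16 genes against time in KCl (horizontal axis, hours), with a point for each of the 6 libraries and a line through the mean of the 2 libraries of a time. Gria1 and Grik1 are highest at 2 h, Grin2b and Grin2a lowest at 2 h, Grin3a, Grm7 and Pick1 are lowest at 6 h, and Grip1 and Grin1 highest at 6 h.

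Cnih3, Shisa6 and Shisa9, auxiliary subunits of AMPA receptors, fell by 6 h in every fit that left out 1 library. None of the 7 passed at 2 h against 0 h, 5 of 7 fell at 6 h against 0 h (21.7% of all genes did) with a median log2 fold change of -0.52 over the 7, and 6 of 7 fell at 6 h against 2 h (21.2% of all genes) with a median of -0.59. The first count came to 3 without either 0 h library or without replicate 2 of 6 h, and the second to 3 without replicate 2 of 6 h and to 4 without any other single library except replicate 1 of 2 h. Other AMPA receptor auxiliary subunits, outside the members, were read in the same fit, and 5 of them had an adjusted p. Of these, 1 fell and 1 rose at 6 h against 0 h (21.7% and 23.7% of all genes), with a median of -0.16. At 6 h against 2 h 3 fell and 1 rose (21.2% and 24.1% of all genes), with a median of -0.4. Cnih3, a cornichon protein that helps AMPA receptors leave the endoplasmic reticulum, had 1542 and 1703 normalized counts at 0 h, 1483 and 1708 after 2 h, and 991 and 996 after 6 h. Both 6 h libraries were well below the other 4, and the gene fell by 0.71 against 0 h (SE 0.14, DESeq2 adjusted p = 1.41e-06). Its relative Cnih2 gave 2582 and 2416 at 0 h, 2474 and 3404 after 2 h, and 2287 and 2618 after 6 h, which overlapped (log2 fold change -0.03 at 6 h against 0 h, 95% interval -0.38 to 0.33). The ratio of Cnih2 to Cnih3 in TPM was 4.04 and 3.5 at 0 h, 4.07 and 4.78 after 2 h, and 5.64 and 6.17 after 6 h, so that it was highest in the 6 h libraries.

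Shisa9 and Shisa6 belong to a family of membrane proteins that slow the recovery or the desensitization of AMPA receptors. Shisa9 had 2459 and 2373 normalized counts at 0 h, 2444 and 2231 after 2 h, and 1634 and 1589 after 6 h, and fell by 0.58 at 6 h against 0 h (SE 0.11, DESeq2 adjusted p = 1.31e-06). Shisa6 had 1577 and 1462 at 0 h, 1564 and 1617 after 2 h, and 1063 and 1002 after 6 h, and fell by 0.56 (SE 0.12, DESeq2 adjusted p = 1.62e-05). For both genes the 6 h libraries were apart from the rest, and the 0 h and 2 h libraries were close together. The TARP genes Cacng2, Cacng3 and Cacng8 encode proteins that tether AMPA receptors to PSD-95. Cacng3 had 573 and 602 normalized counts at 0 h against 462 and 359 at 6 h and fell by 0.52 (SE 0.18, DESeq2 adjusted p = 0.0115), a call lost without either 0 h library or without replicate 2 of 6 h (adjusted p up to 0.28). Cacng2, which encodes stargazin, had 1356 and 1336 against 1072 and 1136 and fell by 0.29 (SE 0.12, DESeq2 adjusted p = 0.0447), a call lost without any of these 4 libraries (adjusted p up to 0.377). Cacng8 was at 160 to 168 normalized counts at 0 h, 191 to 231 after 2 h and 127 to 153 after 6 h, and passed only between 2 h and 6 h (log2 fold change -0.59, DESeq2 adjusted p = 0.0346). That call was lost in all 6 fits without 1 library (adjusted p up to 0.334), with the replicate number as a block in the fit, and with each library corrected for the GC content of the genes, where the change was -0.29 (adjusted p = 0.283). Cacng2 also fell at 6 h against 2 h, but lost that call in 5 of 6 fits without 1 library (adjusted p up to 0.191).

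The PDZ domain proteins Grip1 and Pick1 bind the same tail of the GluA2 subunit, and their messages moved in opposite directions. Grip1, a scaffold that carries AMPA receptors along dendrites and anchors them, had 2004 and 2060.5 normalized counts at 0 h, 2397 and 2508 after 2 h, and 3343 and 3228 after 6 h. The groups did not overlap and lay in the order of time. The rise was 0.27 at 2 h (log2, SE 0.10, DESeq2 adjusted p = 0.0338) and 0.69 at 6 h against 0 h (SE 0.10, adjusted p = 1.16e-10), of which the former was lost in every fit without 1 library but that without replicate 1 of 2 h (adjusted p up to 0.464), and the latter in none. Grip1 overlaps Helb on the opposite strand.

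Pick1, which links receptors to protein kinase C and favours their removal from the surface, had 785 and 811 normalized counts at 0 h, 823 and 964 after 2 h, and 402 and 344 after 6 h. The 6 h libraries had less than every other library by a wide margin. Pick1 fell by 1.10 at 6 h against 0 h, a 2.14-fold lower level (SE 0.17, DESeq2 adjusted p = 3.69e-10), and by 1.26 against 2 h (SE 0.17, adjusted p = 5.44e-13). Without replicate 2 of 6 h the change against 0 h was -0.99, which no longer exceeded a fold of 2 but kept its adjusted p. The estimated fragments of Pick1 were not whole numbers in all 6 libraries, so part of its reads were shared with other genes by the quantifier and its level is to that extent uncertain. In TPM, the ratio of Grip1 to Pick1 was 0.981 and 1.03 at 0 h, 1.24 and 1.1 after 2 h, and 3.19 and 3.96 after 6 h.

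The start regions of these 2 genes and of 2 others are shown because they lie in front of the members that moved in opposite directions by 6 h: Grip1 and Grin1, which rose, and Pick1 and Grik4, which fell. Each window is from RefSeq on GRCm38.p6, runs from 250 bases before to 50 bases after a transcript start, and is written 5′ to 3′ on the strand of the gene. Grip1 lies at chr10:119453784-119454083 on the plus strand, Grin1 at chr2:25319138-25319437 on the minus strand, Pick1 at chr15:79228923-79229222 on the plus strand, and Grik4 at chr9:42944322-42944621 on the minus strand. Of the 3 windows of Grip1 and the 2 of Pick1, the one nearest to the start of the gene is printed. Capitals mark the GC box letters GGGCGG and the CRE core letters TGACG on either strand.
Grip1: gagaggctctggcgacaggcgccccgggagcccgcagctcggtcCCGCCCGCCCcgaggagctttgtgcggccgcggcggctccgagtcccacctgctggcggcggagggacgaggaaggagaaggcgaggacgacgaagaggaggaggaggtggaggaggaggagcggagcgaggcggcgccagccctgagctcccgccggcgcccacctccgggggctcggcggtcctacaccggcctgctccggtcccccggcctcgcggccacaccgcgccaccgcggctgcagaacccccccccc
Grin1: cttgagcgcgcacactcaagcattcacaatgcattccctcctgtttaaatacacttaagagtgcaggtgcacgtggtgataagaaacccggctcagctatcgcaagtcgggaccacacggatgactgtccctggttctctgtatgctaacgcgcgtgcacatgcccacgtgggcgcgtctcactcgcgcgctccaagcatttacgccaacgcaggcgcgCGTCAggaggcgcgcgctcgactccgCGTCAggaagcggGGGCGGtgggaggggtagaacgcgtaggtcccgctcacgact
Pick1: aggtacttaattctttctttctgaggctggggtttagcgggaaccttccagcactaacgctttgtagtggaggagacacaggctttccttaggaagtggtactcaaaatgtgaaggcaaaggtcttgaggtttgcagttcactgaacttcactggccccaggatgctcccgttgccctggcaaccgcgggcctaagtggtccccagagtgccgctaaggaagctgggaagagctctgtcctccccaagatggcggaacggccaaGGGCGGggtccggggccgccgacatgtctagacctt
Grik4: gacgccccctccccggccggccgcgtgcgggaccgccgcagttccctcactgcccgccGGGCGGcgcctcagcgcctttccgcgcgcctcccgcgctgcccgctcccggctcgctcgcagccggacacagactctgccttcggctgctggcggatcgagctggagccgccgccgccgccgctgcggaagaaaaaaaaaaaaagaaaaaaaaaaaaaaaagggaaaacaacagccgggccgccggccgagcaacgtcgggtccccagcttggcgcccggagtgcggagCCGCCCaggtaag

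All 4 windows held a GC box, a binding motif of Sp family factors, and that of Grin1 held 2 copies of the CRE core letters, part of the motif of the activity-dependent factor CREB. Over the 23 genes with an entry, 30 windows in all, the whole CRE TGACGTCA was found on either strand in 0, where 1.79% of the 32851 windows of all genes hold it. The AP-1 letters TGANTCA, the site of Fos and Jun dimers, were in 2 windows (6.67%, of Grin3b and Grm8, against 7.81% of all windows), and the Egr letters GCGTGGGCG in 0 (0.612% of all windows). The CRE core letters, which also lie within the whole CRE, were in 5 windows or 16.7% (20.8% of all), those of Grik2, Grin1 and Grm8 and windows of Grip1 and Pick1 other than the ones printed, and the GC box in 16 windows or 53.3% (35.7% of all). A match describes letters in these windows only.

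NMDA receptor subunits changed in both directions. Grin1, which every NMDA receptor needs, had 2912 and 2712 normalized counts at 0 h, 3034 and 3468 after 2 h, and 3993 and 4414 after 6 h. Its groups did not overlap, and it rose by 0.58 at 6 h against 0 h, or 49.5% (SE 0.13, DESeq2 adjusted p = 3.17e-05). Its fragments were not whole numbers in 4 libraries. Grin2a had 404 and 390.2 normalized counts at 0 h, 320 and 304 after 2 h, and 522 and 568 after 6 h. Thus its 2 h libraries were the lowest and its 6 h libraries the highest, with no overlap, and between 2 h and 6 h it rose by 0.81 (SE 0.16, DESeq2 adjusted p = 2.79e-06). Its rise of 0.46 against 0 h (DESeq2 adjusted p = 0.00945) was lost without any of the 4 libraries compared, with adjusted p up to 0.25, and with library totals as the scale (log2 fold change 0.21).

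Grin2b took a similar path at a far higher level, with 28486 and 22684 normalized counts at 0 h, 19885 and 16499 after 2 h, and 24694 and 26754 after 6 h. Its 2 h libraries lay below all others, and those of 6 h lay between the 2 values of 0 h. Grin2b fell by 0.49 at 2 h (SE 0.16, DESeq2 adjusted p = 0.0115), rose by 0.50 from 2 h to 6 h (SE 0.16, adjusted p = 0.00578), and differed by 0.01 between 6 h and 0 h (adjusted p = 0.976). The 2 h call was lost without replicate 1 of 0 h (log2 fold change -0.31, adjusted p = 0.393) and without replicate 2 of 2 h (-0.38, adjusted p = 0.179), and the later rise without replicate 2 of 2 h or of 6 h (adjusted p up to 0.135).

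Grin3a, whose product lowers the calcium permeability of NMDA receptors and is abundant in young cortex, had 2223 and 2274 normalized counts at 0 h, 1908 and 1853 after 2 h, and 1358 and 1314 after 6 h. The replicates of each time nearly coincided and each time lay below the one before. The gene fell by 0.75 at 6 h against 0 h (SE 0.11, DESeq2 adjusted p = 1.47e-11), and its lower value at 2 h did not pass (-0.26, adjusted p = 0.051). In TPM, Grin3a per Grin1 was 0.396 and 0.438 at 0 h, 0.325 and 0.277 after 2 h, and 0.17 and 0.153 after 6 h. Grin2d, known from inhibitory neurons, had 226 and 259.6 normalized counts at 0 h, 197 and 314 after 2 h, and 137 and 133 after 6 h, and fell by 0.85 against 0 h (SE 0.29, DESeq2 adjusted p = 0.00854), a call lost without any of the 4 libraries compared (adjusted p up to 0.156). The summed inhibitory neuron markers were higher at 6 h, and a link between them and Grin2d was not tested. Grin2d overlaps Kdelr1 on the opposite strand, and whether fragments were counted by strand is not stated in the sources used here. Grin2c, at 10 to 25 normalized counts, was too sparse for its intervals to be informative (95% interval at 6 h against 0 h from -1.64 to 1.09).

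Among the kainate receptor genes, Grik1 rose at 2 h and Grik4 fell at 6 h. The Grik1 subunit, found mostly in inhibitory neurons of the cortex, had 662 and 667 normalized counts at 0 h, 998 and 1041 after 2 h, and 829 and 713 after 6 h. Its 2 h libraries were above all others, and it rose by 0.62, or 1.53-fold (SE 0.14, DESeq2 adjusted p = 1.27e-04). With replicate 1 or replicate 2 of 0 h left out the adjusted p was 0.0562 and 0.05002, just above the threshold, while the estimate lay between 0.57 and 0.64 in all fits without 1 library. From 2 h to 6 h it fell by 0.40 (DESeq2 adjusted p = 0.0123), a call lost in all such fits but that without replicate 1 of 2 h (adjusted p up to 0.305).

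Grik4, a high-affinity subunit that needs a partner to form channels, had 418 and 457 normalized counts at 0 h, 332 and 439 after 2 h, and 185 and 228 after 6 h. The 6 h libraries were the lowest of the 6, whereas 0 h and 2 h overlapped. Grik4 fell by 1.08 at 6 h against 0 h, a 2.12-fold lower level (SE 0.22, DESeq2 adjusted p = 7.36e-06). Without replicate 1 of 6 h this was -0.94 and with a correction for GC content -0.975, which no longer exceeded a fold of 2, though the adjusted p stayed under 0.05. Grik5, the other high-affinity subunit, had 1916 and 1972 at 0 h, 2009 and 2774 after 2 h, and 1411 and 1674 after 6 h, and fell between 2 h and 6 h (log2 fold change -0.63, DESeq2 adjusted p = 0.0025, and 0.102 without replicate 1 of 6 h); that value was -0.37 without replicate 2 of 2 h and -0.38 with the GC correction. Grik2 rose between 2 h and 6 h (log2 fold change 0.52, DESeq2 adjusted p = 0.00988), from 2015 and 1570.4 to 2641 and 2484 normalized counts, a call lost without either 6 h library (adjusted p up to 0.15), and by 0.31 with the GC correction. Grik3, with 3615 to 4378 normalized counts in the 6 libraries, and the delta receptor gene Grid1, with 1697 to 2139, passed in no comparison of the full fit. Both passed as lower at 6 h in some alternatives, among them library totals against either earlier time.

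The kainate receptor auxiliary subunits were higher in both 6 h libraries than in both 0 h libraries, but neither passed against 0 h with the group as the only term and all 6 libraries in the fit. Neto2 had 5565 and 4555 normalized counts at 0 h, 7033 and 3500.5 after 2 h, and 7142 and 7588 after 6 h. Its 2 h libraries were farther apart, with a log2 ratio of 1.01, than those of any other of the 32 members compared for GC content. Its change at 2 h against 0 h was 0.06 in the full fit, -0.54 without replicate 1 of 2 h and 0.46 without replicate 2 of 2 h. With the GC correction that change was 0.22 (DESeq2 adjusted p = 0.027, and 0.0598 with the replicate block added). At 6 h against 2 h it was 0.48 in the full fit (DESeq2 adjusted p = 0.159) and -0.08 with the GC correction. There it was 0.56 with the replicate block (DESeq2 adjusted p = 0.0312), 1.08 without replicate 1 of 2 h and 0.08 without replicate 2 of 2 h. The log2 fold change at 6 h against 0 h was 0.54 (95% interval -0.02 to 1.10, DESeq2 adjusted p = 0.11), and 0.15 with the GC correction. Both genes passed as higher at 6 h against 0 h with the replicate block (DESeq2 adjusted p = 0.0283 for Neto2 and 0.0158 for Neto1), with only these groups in the fit and without either 2 h library, and neither did with the GC correction. Neto1, with 1194 to 1359 normalized counts at 0 h and 1513 to 1885 at 6 h, passed against 2 h with all libraries (log2 fold change 0.49, DESeq2 adjusted p = 0.0469), and there it came to 0.03 with the GC correction and lost its call in 5 of 6 fits without 1 library (adjusted p up to 0.407).

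Metabotropic receptors fell in group III, which inhibits transmitter release from the terminal, and all 3 measured genes of that group fell at 6 h against 0 h (median log2 fold change -0.75), as did 21.7% of all genes. Grm4 (chr17:27422387-27521403, minus strand, GRCm38) had 205 and 218 normalized counts at 0 h, 169 and 230.5 after 2 h, and 62 and 66 after 6 h. Both 6 h libraries were far below the rest, and 0 h and 2 h overlapped. Grm4 fell by 1.73 at 6 h against 0 h, a 3.32-fold lower level and the largest change among the 33 genes (SE 0.28, DESeq2 adjusted p = 4.25e-09), and by 1.64 against 2 h (SE 0.28, adjusted p = 3.65e-08). Over the fits without 1 library the change against 0 h ran from -1.77 to -1.68.

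Grm7, the most widespread receptor of the group in the forebrain, had 1316 and 1246 normalized counts at 0 h, 1177 and 1072 after 2 h, and 798 and 728 after 6 h, with no overlap between groups. It fell by 0.75 at 6 h against 0 h (SE 0.13, DESeq2 adjusted p = 1.54e-07). Grm8 had 206 and 225 normalized counts at 0 h, 199.7 and 222 after 2 h, and 154 and 152 after 6 h, and fell by 0.50 (SE 0.21, DESeq2 adjusted p = 0.0453), a call lost in each of the 6 fits without 1 library (adjusted p 0.0866 to 0.366). Grm6, at 0 to 4 estimated fragments, could not be read.

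Grm5, the group I receptor that couples to calcium release, had 9081 and 8132 normalized counts at 0 h, 11041 and 6374 after 2 h, and 7625 and 7321 after 6 h. As with Gria2, its 2 h libraries held the highest and the lowest values, and its 6 h libraries lay below those of 0 h (log2 fold change -0.20, 95% interval -0.67 to 0.26, DESeq2 adjusted p = 0.519). With 1 of the 2 h libraries left out of the fit, the same change passed (adjusted p = 0.00618 without replicate 1, 0.00629 without replicate 2). Within group II, Grm2 had 130.5 and 139 at 0 h, 97 and 121 after 2 h, and 187 and 183 after 6 h and rose between 2 h and 6 h (log2 fold change 0.77, SE 0.25, DESeq2 adjusted p = 0.00628), a call lost without replicate 1 of 2 h or either library of 6 h (adjusted p up to 0.14). Grm3, which astrocytes also express, ranged from 1177 to 1746 normalized counts and passed in no comparison of the full fit, but fell at 6 h against 2 h with the GC correction (-0.37, DESeq2 adjusted p = 0.0243) and against 0 h with library totals.

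Shares of the class total in TPM describe how the mix of subunits stood in each library. They are given as a description, without a test. The AMPA receptor genes together came to 546.9 and 489 TPM at 0 h, 519.2 and 439.5 TPM after 2 h, and 380.7 and 368.7 TPM after 6 h, with the 6 h libraries lowest. Of that total Gria1 held 33.3% and 33.5% at 0 h, 32.9% and 43.6% after 2 h, and 27.6% and 25.8% after 6 h, and Gria2 held 49.9% and 48.6%, 48.5% and 40.4%, and 51.5% and 54.3%. Gria1 per Gria2 was thus lowest at 6 h, at 0.535 and 0.475 against 0.667 and 0.689 at 0 h, while the 2 h libraries gave 0.678 and 1.08. Gria4 went from 9.93% and 10.9% at 0 h to 14.7% and 13.7% at 6 h.

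The NMDA receptor genes came to 203 and 177.8 TPM at 0 h, 153.1 and 140.7 TPM after 2 h, and 188.1 and 208.3 TPM after 6 h. Grin1 held 27.5% and 29.2% of the total at 0 h, 33.3% and 42.2% after 2 h, and 36.6% and 36.4% after 6 h, and Grin3a held 10.9% and 12.8%, 10.8% and 11.7%, and 6.24% and 5.59%. The share of Grin1 was lowest at 0 h and that of Grin3a lowest at 6 h. Within the GluN2 genes alone, Grin2b kept 91.7% and 89.8% at 0 h, 91.5% and 86.3% after 2 h, and 91.1% and 91.4% after 6 h, so the 6 h libraries lay within the range of 0 h. Of the kainate receptor total, Grik4 held 5.96% and 6.73% at 0 h and 2.92% and 3.47% at 6 h. Grm5 made up 61.9% to 68% of the metabotropic total in the 6 libraries.

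**Figure D3:**
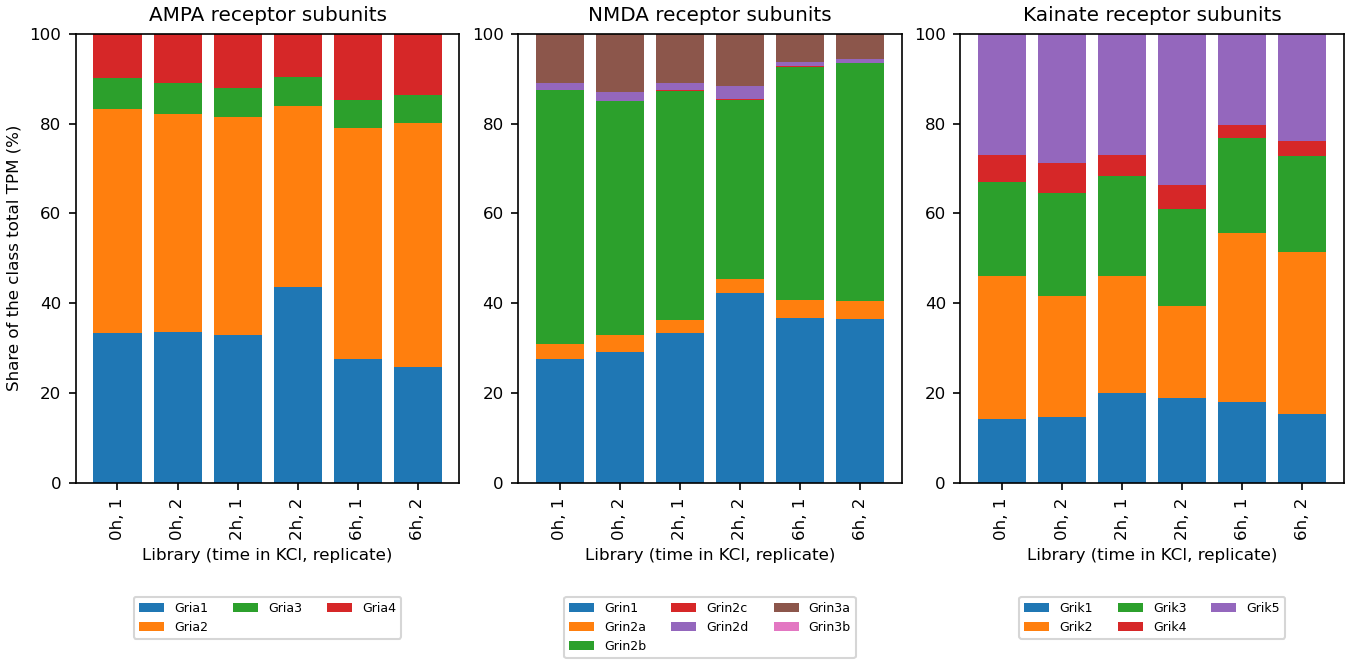
Share of each subunit gene in the summed TPM of its class (vertical axis, percent) in each of the 6 libraries (horizontal axis, time in KCl and replicate number) for AMPA, NMDA and kainate receptor subunits. The Gria1 band is narrowest at 6 h (27.6% and 25.8%), the Grin3a band narrows to 6.24% and 5.59%, and in the 2 h libraries replicate 2 departs from replicate 1 in the Gria1 and Grin1 bands.

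A second measure, the effective length that the quantifier gives each gene, averages over the transcripts of the gene by their abundance and so moves with their mix. Of the 32 members with a mean of at least 100 estimated fragments, Gria4 alone changed at 6 h against 0 h (limma, adjusted p at most 0.05, log2 ratio of 0.2 or more in size), where 0.525% of 11233 genes did; 3 members had an unadjusted p under 0.05. No member changed at 2 h against 0 h, where 0.0356% of all genes did and 2 members had an unadjusted p under 0.05, or at 6 h against 2 h, where 0.116% did and 3 members had. The effective length of Gria4 was 3780 and 3643 bases at 0 h, 3569 and 3531 after 2 h, and 3080 and 3044 after 6 h. Its 6 h libraries were shorter than all others, with a log2 ratio of -0.28 against 0 h (SE 0.02, limma adjusted p = 0.0465). The call was lost with a lower count minimum, with the replicate number as a term and in 5 of 6 fits without 1 library (all but that without replicate 2 of 6 h). Grm7 had a log2 ratio of -0.31, with 3515 and 3792 bases at 0 h and 3047 and 2847 at 6 h, which did not overlap, but did not pass (limma adjusted p = 0.144).

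GENCODE M21 lists 3 transcripts of Gria4, of 2338, 5352 and 5441 bases, and the deposited mean length fixes the share of the shortest within narrow bounds if no other transcript was used; the annotation release used by the authors is not stated. On that reading the short transcript held 42.1% to 43.8% and 46.3% to 47.8% of Gria4 TPM at 0 h, 48.6% to 50.1% and 50.03% to 51.5% at 2 h, and 64.7% to 65.7% and 66.01% to 67% at 6 h. In level, it lay between 22.9 and 25.5 TPM at 0 h and between 33.4 and 36.8 TPM at 6 h, whereas the long transcripts together lay between 27.8 and 31.4 TPM at 0 h and between 16.7 and 19.8 TPM at 6 h. These levels went opposite ways, while the total of Gria4 ranged from 42.4 to 62.2 TPM over the 6 libraries. This reading was added after the lengths had been seen. For Grik4, with transcripts of 3413 and 5887 bases, the shorter held 84.1% and 84.1% at 0 h, 85.7% and 83.3% after 2 h, and 95.5% and 91.8% after 6 h, but its change in length did not pass (limma adjusted p = 0.135). The effective lengths of Shisa6, Grm4 and Cacng3 differed widely between the 6 h libraries, so their TPM at 6 h are less certain than their normalized counts.

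**Figure D4:**
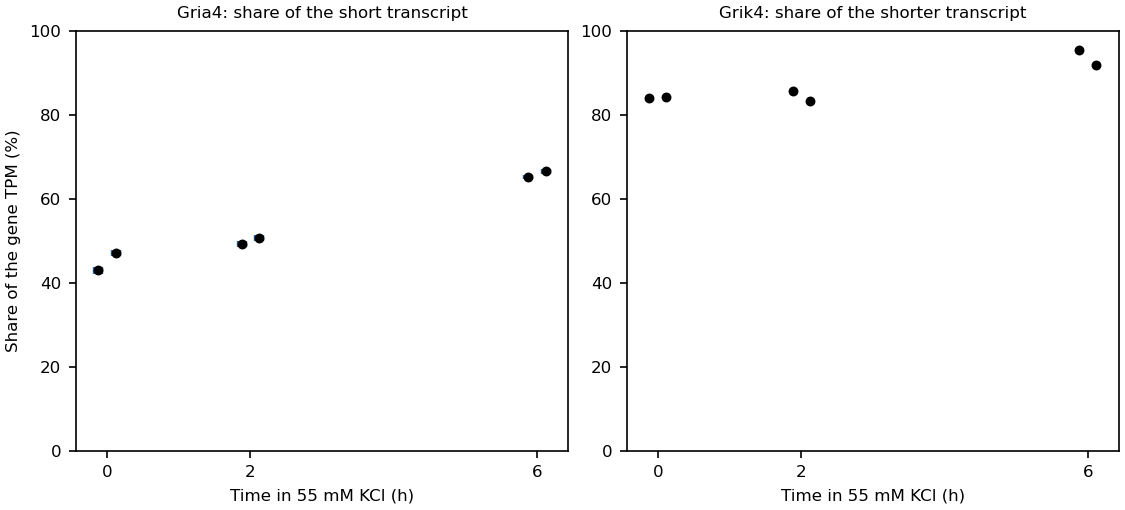
Share of the shorter transcript in the TPM of Gria4 (left) and Grik4 (right) in percent (vertical axis) against time in KCl (horizontal axis, hours), with a point for each library at the middle of the bounds that the listed transcript lengths allow; bars for the bounds are no longer than the points. Gria4 stands below 52% in the libraries of 0 h and 2 h and above 64% in those of 6 h.

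The difference between the 2 h libraries followed the GC content of the genes. Over 12290 genes, Spearman's rho between GC content and the log2 ratio of the replicates came to -0.719 for the 2 h libraries, -0.392 for 0 h and -0.289 for 6 h, a description across genes, which are not independent. All 6 members under 45% GC (Neto2, Neto1, Gria2, Gria3, Gria4 and Grik2) were higher in replicate 1 than in replicate 2 at 2 h, and 8 of 9 members of at least 55% GC were lower. With each library corrected for GC content, 4 members rose and 1 fell at 2 h, where 16.6% of all genes rose and 16.4% fell, and Gria1 passed among them (log2 fold change 0.27, DESeq2 adjusted p = 0.0162). The correction was fitted to each library against the mean of all libraries, so it also took out any GC trend between the times. Whether such a trend was part of the response to KCl was not tested. At 6 h against 0 h Gria2 fell by 0.42 (DESeq2 adjusted p = 1.18e-04) and Gria4 by 0.27 with that correction, beside -0.23 and -0.10 without it. Gria3 then fell by 0.61, beside 0.60 for Gria1. Of the AMPA receptor subunits, 4 of 4 passed as lower at 6 h against 0 h with the correction (23.4% of all genes), and 2 of 4 without it (21.7%), where all 4 estimates were below 0.

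**Figure D5:**
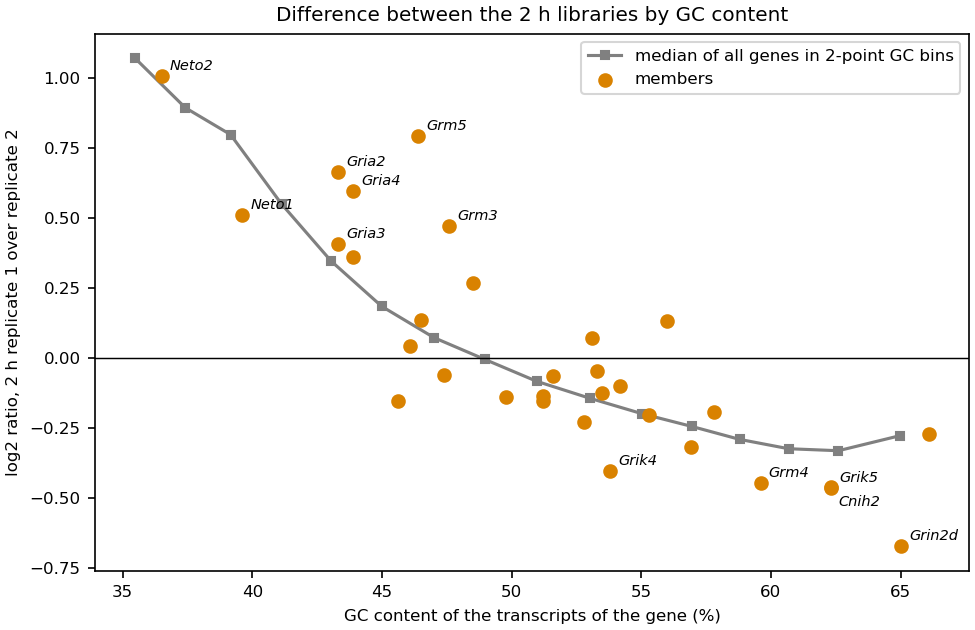
Log2 ratio of normalized counts of replicate 1 over replicate 2 at 2 h (vertical axis) against GC content in percent (horizontal axis) for 32 members (circles), with the median of all genes in bins of GC content (squares). Neto2 at 36.5% GC lies at 1.01 and Grin2d at 65% GC at -0.67, and the members follow the downward course of all genes.

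Genes that assemble, anchor or supply these receptors were read in the same fit, 25 in number, of which 24 had an adjusted p. At 6 h against 0 h, 3 passed the stricter call as higher and 2 as lower, beside 9.1% and 10.2% of all genes, and at 2 h none did, beside 9.55% of all genes in either direction, with 8 at an unadjusted p under 0.05 and 1 past the stricter call with library totals. Dlg1, the PSD-95 relative SAP97 that binds the GluA1 tail, had 1050.2 and 962 normalized counts at 0 h, 1262 and 1133 after 2 h, and 2905 and 2880.4 after 6 h, far above the rest at 6 h (log2 fold change 1.52, SE 0.12, DESeq2 adjusted p = 5.19e-33). Cacng5, an atypical TARP, rose by 1.18 (adjusted p = 5.22e-07), but by 0.98 without replicate 1 of 6 h and 0.93 with library totals, which no longer exceeded a fold of 2. Grip2, the close relative of Grip1, fell to a 2.47-fold lower level (adjusted p = 1.60e-09), with 582 and 678 normalized counts at 0 h, 447 and 559 after 2 h, and 278 and 232 after 6 h, the opposite direction to Grip1. Porcn, which regulates AMPA receptor assembly, fell by 1.23 (adjusted p = 2.90e-10).

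Shisa7, a relative of Shisa6 and Shisa9, had 3834 and 3383 normalized counts at 0 h, 5993 and 6469 after 2 h, and 2214 and 2012 after 6 h. It was highest at 2 h and lowest at 6 h without overlap, as Gria1 was, and fell by 1.56 between 2 h and 6 h (SE 0.13, DESeq2 adjusted p = 1.26e-32). Abhd6, which restrains AMPA receptor delivery, took the reverse course, with 943 and 805 at 0 h, 529 and 447 after 2 h, and 1106 and 1225 after 6 h, and rose by 1.26 between 2 h and 6 h (SE 0.17, DESeq2 adjusted p = 1.07e-12). Between these times 3 of the 24 passed the stricter call as higher and 2 as lower, beside 10.1% and 8.02% of all genes.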

How the data were processed

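RNA-seq libraries of 6 cortical neuron cultures were analysed, 2 per time in KCl. According to the labels and the study's methods, the authors trimmed the reads and quantified them against the mouse transcriptome with RSEM 1.3.0 and Bowtie2 2.2.9. The authors deposited for each gene an expected count (fragments shared out between transcripts, so that it need not be whole), a TPM value (transcripts scaled to the same total in each library) and an effective length in bases (unit other). The FPKM values that the authors deposited beside these, from the same RSEM run, were not used. Gene names and positions came from GENCODE M21 on GRCm38, and 42462 of 43432 genes matched a symbol. The annotation release and strand setting of the authors are not given in the sources used here.

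Expected counts were rounded and tested with DESeq2 1.42.0 in R 4.3.3 over all 6 libraries and all genes, with the group as the only term, median-of-ratios size factors, unshrunken log2 fold changes and Benjamini-Hochberg adjustment after independent filtering, following the design of the study. Effective lengths were compared with limma 3.58.1 and a trend, where the mean count reached 100. The main DESeq2 and limma tests were run on simulated data that held no GC trend between libraries. The alternatives were not checked in this way. TPM was used to compare genes and normalized counts to compare times. The library totals of 25959298 to 28573067 fragments limit the precision of genes with few counts, such as Grin2c. Alternatives used edgeR 4.0.16, other scalings, filters and terms, a correction for GC content, and each library left out in turn.

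All 35 members are accounted for. Those past the stricter call, and Gria1, Gria2, Grin1, Grin2a, Grin2b and Grm5, were to be given library by library; other members with an adjusted p of at most 0.05 were added after seeing the data. The members and lists were chosen with earlier results of these data known. The comparisons at adjusted p alone, the Gria4 and Grik4 transcript shares, the CRE core letters and the GC box were added after seeing the data. A planned comparison of protein sequences was not made. Bisulfite libraries were not used here. Of the related genes counted in the report, 1 is not reported here by name.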

Additional observations from a re-analysis of the deposited data

How the results depend on the processing

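Among members, no gene passed the stricter call at 2 h in any alternative. Tested against a fold of 2 itself, 0 members passed at 6 h against 0 h and 0 at 6 h against 2 h, beside 3 and 2, and 1 of the related genes passed in each of these comparisons, beside 5 and 5; by construction that test gives no count at adjusted p alone. With each library left out in turn, 2 to 3 members passed at 6 h against 0 h and 2 to 5 at 6 h against 2 h, the 5 being without replicate 1 of 2 h. At adjusted p alone, the 2 members that rose at 2 h became 1 with edgeR, library totals, the replicate block or only the groups compared, 4 with the GC correction and 0 to 7 with a library left out. The 1 that fell became 4 with library totals, 2 with a mean count of at least 10, 0 with only the groups compared and 0 to 6 with a library left out. At 6 h against 0 h the 3 that rose became 6 with the replicate block or only the groups compared, and 2 to 6 with a library left out, and the 14 that fell became 9 to 17 with a library left out and 19 with library totals. At 6 h against 2 h the 7 that rose became 2 to 8 and the 16 that fell 9 to 17 with a library left out, the latter 20 with the GC correction. With library totals the median log2 fold change of all genes was -0.156 at 2 h and -0.251 at 6 h against 0 h, beside 0.011 and -0.004, so falls on that scale are relative to a lower centre, and 1 related gene then passed the stricter call at 2 h. Values past the threshold with the sign opposite to that in the full fit came from leaving out a 2 h library, where Gria2 at 2 h was -0.42 without replicate 1 and 0.24 without replicate 2, Neto2 at 2 h -0.54 and 0.46, and Grm5 without replicate 1 and replicate 2 was -0.44 and 0.34 at 2 h against 0 h and 0.24 and -0.55 at 6 h against 2 h. Estimates that did not pass in the full fit also changed sign with a library left out, such as Grin2b at 6 h against 0 h (-0.145 to 0.184), Grm4 at 2 h (-0.344 to 0.113) and Gria2 at 6 h against 2 h (-0.468 to 0.188). The changed effective length of Gria4 at 6 h against 0 h became 0 members with a minimum of 20 or the replicate block and 0 to 1 with a library left out, and at 6 h against 2 h 0 to 1. The replicate numbers pair the cultures only by number: with 2 pairs, the correlation of same-numbered deviations over 12290 genes was 0.281, -0.002 and 0.152 in the comparisons of 2 h and 6 h with 0 h and of 6 h with 2 h, and the block left 3 and 2 members past the stricter call at 6 h, as without it. At adjusted p alone, 12 members fell and 6 rose with the block at 6 h against 0 h, beside 14 and 3 without it. Cacng2 and Grm8 lost their call there, and Grik2, Neto1 and Neto2 gained one. The cause of these shifts was not tested. The next counts cover comparisons past adjusted p in the full fit, for members and for related genes past the stricter call. They also cover every comparison of Gria1, Gria2, Grin1, Grin2a, Grin2b, Grm5, Grm4, Pick1 and Grik4. Of these values, 972 kept their side of the threshold and 173 lost it, 58 of them in the test against a fold of 2. A further 20 gained it and 3 were past it with the opposite sign. Gains and sign changes of other members, such as Neto2 at 2 h, lie outside these counts. Depth limits Grin2c, Grin3b and Grm6.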
